A study of Arabidopsis thaliana with 22 samples.

Results

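This account covers 33 genes that continuous red light raised most in wild-type Arabidopsis thaliana seedlings, out of 13350 genes that the ATH1 array measured with a probe set naming 1 gene. A gene was included when its mean log2 intensity under red light was at least 3 units, an 8-fold difference, above its mean in dark wild type, and when both red-light arrays lay above all 3 dark arrays of the same labelling kit. These wild-type differences chose the genes, so they are given as a description and support no claim. The choice did not use 16 arrays of 2 phytochrome mutants and 1 further wild-type dark array. In the main fit, the differences of the 33 genes tested below rest on those arrays. Wild-type red light against dark was tested only for other genes and over all probe sets, on the arrays that chose the 33. The spread behind each standard error and p-value was estimated over all 22 arrays together, so the arrays that chose the genes enter it too.

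All seedlings were 4 days old, whole, and of the accession Ler. The quadruple mutant phyABDE keeps phytochrome C as its sole phytochrome, and the quintuple mutant phyABCDE has none of the phytochromes A to E. R50 denotes growth in uninterrupted red light of 50 µmol m-2 s-1, DR2h denotes dark growth ended by 2 h of the same red light, and dark denotes dark growth alone. Each mutant had 3 R50, 2 DR2h and 3 dark arrays, and wild type had 2 R50 and 4 dark arrays, with no wild-type DR2h array. All groups shared cold imbibition in darkness for 4 days and 3 h of white light before growth, so the dark seedlings had also seen light once. The titles call the arrays of a group biological replicates and do not say whether they were separate sowings, so p-values measure the spread between these samples.

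Phytochromes are photoreceptors that switch between a red-absorbing inactive form and a far-red-absorbing active form. The active form enters the nucleus and promotes the turnover of PIF transcription factors, which hold back light-induced genes in darkness. In a seedling that grew in the dark this starts de-etiolation: the hypocotyl stops elongating, the cotyledons open, and plastids turn into green chloroplasts.

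The arrays had median intensities of 40.4 to 45.1 units. Per the series text, the RNA of both wild-type R50 arrays and of wild-type dark replicates 2 to 4 went through the One-cycle kit, and that of every mutant array and of wild-type dark replicate 1 through the 3' IVT Express kit. Sample by sample, the labels give 3' IVT Express for every array, and the series text was followed. Of 31 tissue markers, 8 were measured, for root hairs, the guard cell lineage, green tissue and the shoot apex; none of the seed, epidermis and root markers was measured. All 8 lay higher in wild-type R50 than in all 4 wild-type dark arrays. The share of all probe sets was not counted there, so the 8 cannot be weighed against it. By another measure, limma at an adjusted p under 0.05, 3115 of 22746 probe sets were higher in wild-type R50 than in dark. All R50 arrays were above all dark arrays for 1 marker in phyABDE and 4 in phyABCDE, against 10.8% and 6.08% of all probe sets. EXPA7 was lower in phyABCDE R50, at 2.91 to 3.21 against 3.37 to 3.67 in dark. MUTE was dim, at 3.40 to 3.61 in wild-type R50. The mean level of the 8 was 5.96 to 6.10 in phyABDE R50 and 5.83 to 5.97 in phyABDE dark arrays. In phyABCDE it was 5.96 to 6.01 in R50 and 5.79 to 5.92 in dark arrays. In wild type it was 7.27 to 7.46 in R50 and 5.81 to 6.17 in dark arrays. The part of tissue make-up in the changes below was not tested, and in whole seedlings fewer cells of a type cannot be told apart from less RNA per cell. The transcripts of the phytochromes themselves were not analysed here, so the genotypes were taken from the labels.

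**Figure D1:**
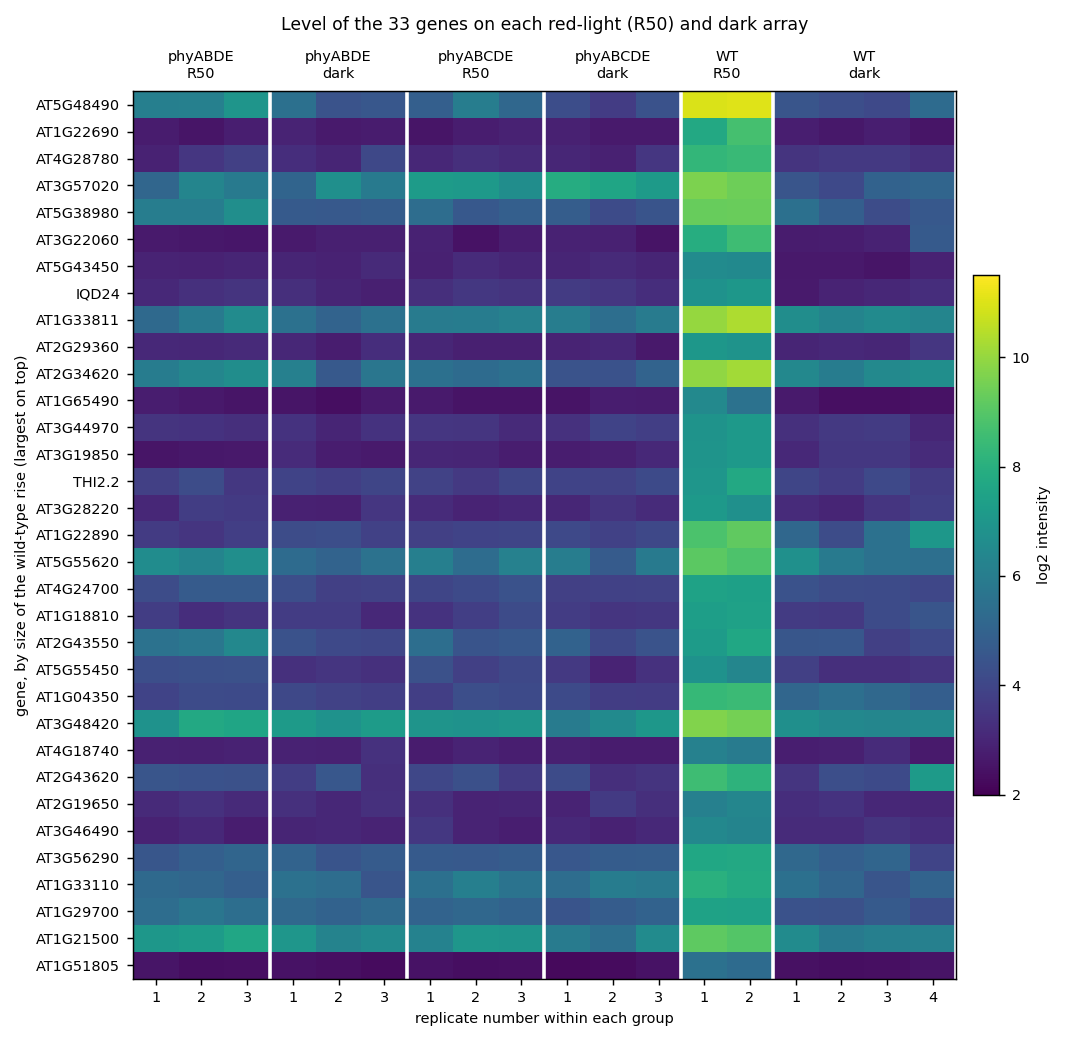
Log2 intensity (colour) of the 33 genes in rows, by size of the wild-type rise, on the R50 and dark arrays in columns, grouped by genotype and light. The 2 wild-type R50 columns stand out in all rows, since this is how the genes were chosen.

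In wild type the 33 genes were 8.06-fold to 86.7-fold brighter in R50 than in dark seedlings of the same kit, with a median of 10.6-fold. The 2 R50 arrays differed by at most 0.5 log2 units in 29 genes. Wild-type dark replicate 1 had no part in the choice and was labelled with the other kit. On it all 33 genes were below both R50 arrays. The distance to the R50 mean was 2.18 to 6.48 log2 units, with a median of 3.5. The R50 arrays in this comparison chose the genes, so it is a description and no independent support. In dark wild type 16 of the genes had mean log2 levels under 4, as did 41.4% of all probe sets naming 1 gene. No detection calls were used, so a level that dim is not shown to be above background and its fold change may understate the change. The genes spread over all chromosomes, with 10 on chromosome 1, 5 on chromosome 2, 8 on chromosome 3, 3 on chromosome 4 and 7 on chromosome 5. The closest pair, AT2G43550 and AT2G43620, lay 7 genes apart.

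The gene tables used here name 2 of the 33 genes, THI2.2, a thionin, and IQD24, an IQ-domain gene. Thionins are small cysteine-rich peptides of plants that are toxic to microbes, and IQ-domain proteins bind calmodulin, the sensor of calcium in the cell. The other genes go by their locus codes in those tables, with no function given, so none is stated for them. Differences are R50 minus dark replicates 2 to 4, on the log2 scale, and the genes follow in groups of similar size and level.

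AT5G48490 had log2 levels of 10.98 and 11.02 in wild-type R50 seedlings, against 4.52, 4.28, 4.09 and 5.31 in wild-type dark seedlings. Its difference of 6.44 was the largest among the 33 genes, and no dark array came near the R50 arrays. AT1G22690 had 7.75 and 8.71 in wild-type R50 seedlings, against 2.80, 2.62, 2.80 and 2.53 in wild-type dark seedlings, a difference of 5.58. Its 2 R50 arrays were nearly 1 log2 unit apart, while the dark arrays lay close together at the dim end of the scale. AT4G28780 had 8.29 and 8.44 in wild-type R50 seedlings, against 3.43, 3.58, 3.58 and 3.31 in wild-type dark seedlings, a difference of 4.87. AT3G57020 had 9.63 and 9.39 in wild-type R50 seedlings, against 4.52, 4.1, 4.98 and 5.10 in wild-type dark seedlings, a difference of 4.78. Its dark arrays spanned 1 log2 unit, far less than the distance to the R50 arrays. AT5G38980 had 9.30 and 9.33 in wild-type R50 seedlings, against 5.52, 4.83, 4.19 and 4.62 in wild-type dark seedlings, a difference of 4.76. Here too the groups were well apart.

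AT3G22060 had 7.91 and 8.53 in wild-type R50 seedlings, against 2.73, 2.76, 2.92 and 4.71 in wild-type dark seedlings, a difference of 4.76. Dark replicate 4 stood well above the other dark arrays. With that array left out the difference is 5.38. The same array was over 1 log2 unit above the 3 other wild-type dark arrays in 2 more genes, AT1G22890 and AT2G43620. AT1G22890 had 8.81 and 9.18 in wild-type R50 seedlings, against 5.18, 4.20, 5.53 and 7.03 in wild-type dark seedlings, a difference of 3.41 that is 4.13 without replicate 4. AT2G43620 had 8.54 and 8.13 in wild-type R50 seedlings, against 3.47, 4.29, 4.12 and 7.18 in wild-type dark seedlings, a difference of 3.13 that is 4.13 without replicate 4. For AT2G43620 that dark array lay 0.95 below the nearer R50 array, so the groups did not overlap.

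THI2.2 had a difference of 3.55. The only other gene picked as a thionin by symbol, THI2.1, had a wild-type difference of 0.24 (adjusted p = 0.155, limma). THI2.1 was dim, at mean levels of 2.88 in R50 and 2.64 in dark replicates 2 to 4, not shown to be above background. IQD24 had 6.83 and 7.02 in wild-type R50 seedlings, against 2.71, 2.94, 3.07 and 3.26 in wild-type dark seedlings, a difference of 3.83. Its dark arrays were dim, and both R50 arrays lay far above them.

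Of the genes already at a log2 level above 4 in dark wild type, AT1G33811 had 9.98 and 10.31 in wild-type R50 seedlings, against 6.65, 6.28, 6.55 and 6.33 in wild-type dark seedlings, a difference of 3.76. AT2G34620 had 9.91 and 10.20 in wild-type R50 seedlings, against 6.44, 5.99, 6.48 and 6.68 in wild-type dark seedlings, a difference of 3.67. AT1G04350 had 8.37 and 8.49 in wild-type R50 seedlings, against 5.14, 5.47, 5.20 and 4.85 in wild-type dark seedlings, a difference of 3.25. In each the R50 arrays lay close together and apart from the dark arrays. AT3G48420 had 9.72 and 9.50 in wild-type R50 seedlings, against 6.73, 6.45, 6.38 and 6.45 in wild-type dark seedlings, a difference of 3.18. AT1G21500 had 9.14 and 8.97 in wild-type R50 seedlings, against 6.57, 5.88, 6.09 and 6.15 in wild-type dark seedlings, a difference of 3.01. AT2G43550 had 7.23 and 7.67 in wild-type R50 seedlings, against 4.56, 4.58, 3.80 and 4.09 in wild-type dark seedlings, a difference of 3.29. The last had no overlap either, though dark levels differed more between arrays.

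Dim in the dark were the following. AT5G43450 had 6.59 and 6.51 in wild-type R50 seedlings, against 2.66, 2.65, 2.52 and 2.90 in wild-type dark seedlings, a difference of 3.85. AT2G29360 had 7.04 and 6.88 in wild-type R50 seedlings, against 2.98, 3.11, 3.01 and 3.5 in wild-type dark seedlings, a difference of 3.75. AT5G55450 had 6.85 and 6.37 in wild-type R50 seedlings, against 3.80, 3.30, 3.30 and 3.42 in wild-type dark seedlings, a difference of 3.27. None of their R50 arrays came near the dark arrays. AT1G65490 had 6.48 and 5.58 in wild-type R50 seedlings, against 2.69, 2.38, 2.37 and 2.48 in wild-type dark seedlings, a difference of 3.62. AT1G51805 had 5.53 and 5.33 in wild-type R50 seedlings, against 2.44, 2.35, 2.41 and 2.5 in wild-type dark seedlings, a difference of 3.01. The R50 arrays of AT1G65490 were further apart than those of AT1G51805, and in both genes they lay above all dark arrays.

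The wild-type difference was 3.59 for AT3G44970, 3.58 for AT3G19850, 3.52 for AT3G28220 and 3.29 for AT1G18810. It was 3.34 for AT5G55620, 3.31 for AT4G24700, 3.16 for AT4G18740 and 3.10 for AT2G19650. Smaller differences were 3.07 for AT3G46490, 3.06 for AT3G56290 and 3.02 for AT1G29700. Just inside the threshold stood AT1G33110 at 3.04, AT1G29700 at 3.02, and AT1G21500 and AT1G51805 at 3.01, and just outside AT1G33600 at 2.97, AT5G25840 at 2.95, and AT1G21540 and AT1G70820 at 2.92.

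Other genes of known kind, picked by symbol, were set beside the 33. Over all 22746 probe sets tested, limma called 27.5% in wild-type R50 against dark at an adjusted p under 0.05, and the following counts use that call with the 33 genes left out. Of the 14 IQ-domain genes other than IQD24 1 was higher and 6 were lower, with a median of -0.43. The median over all probe sets, the 33 genes included, was -0.02. IQD26 changed by -1.64 ± 0.12 and iqd21 by 1.23 ± 0.16 (SE). Of 24 genes named as cytochrome P450 enzymes, which oxidise many small molecules, 1 was higher and 3 were lower, with a median of 0.01. The higher one was CYP71B5 at 1.43 ± 0.22 (SE). Most of the 24 have symbols beginning with CYP71B, so these values do not describe P450 genes as a whole. Of 9 nuclear photosystem and antenna genes, the textbook targets of red light, 8 were higher and none lower, with a median of 1.41. LHCB4.2 reached 2.16 ± 0.30 and PSAN 2.05 ± 0.21 (SE). These 9 are the ones whose names matched, so the values do not describe such genes as a whole. None of these list genes was called in any of the 4 mutant light responses, where 0.0044% to 0.145% of all probe sets were called. The photosystem and antenna genes had median changes of 0.41 in phyABDE R50 and 0.29 in phyABCDE R50, against 0.01 over all probe sets in each. In DR2h their medians were -0.22 in phyABDE and 0.04 in phyABCDE, against -0.01 over all probe sets in each. These medians were not tested.

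In phyABDE, where phytochrome C is the sole phytochrome left, continuous red light raised 3 of the 33 genes, AT2G43550, AT5G38980 and AT5G55450, and lowered none. Over all probe sets 0.145% were called in this comparison, 29 upward and 4 downward. The median log2 change of the 33 genes was 0.12, against 0.01 over all probe sets, 20 of 33 changes were positive, against 51.9% over all probe sets, and 17 were smaller than 0.2 in size. That median was 0.23 without R50 replicate 1, 0.07 without dark replicate 2, 0.18 without dark replicate 1 and 0.19 without dark replicate 3. At an unadjusted p under 0.05, 9 genes were higher and none lower, 6 of them not called after adjustment, while 11.6% of all probe sets had such a p in either direction. With the replicate number as a block those counts were 11 higher and 1 lower. The lower one was AT1G22890 at -0.48 ± 0.14 (SE, adjusted p = 0.162, limma). Its SE was 0.40 in the main fit.

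AT2G43550 had log2 levels of 5.57, 5.78 and 6.45 in phyABDE R50 seedlings, against 4.41, 4.09 and 4.03 in phyABDE dark seedlings. All 3 R50 arrays lay more than 1 unit above the dark arrays, and the change of 1.76 ± 0.30 (SE, adjusted p = 0.0189, limma) was 53.4% of the wild-type difference on the log2 scale. AT5G38980 had 6.04, 6.01 and 6.69 in phyABDE R50 seedlings, against 4.69, 4.66 and 4.77 in phyABDE dark seedlings. Its dark arrays lay within 0.2 units of each other and the R50 arrays were all above them, a change of 1.54 ± 0.25 (SE, adjusted p = 0.0154, limma). AT5G55450 had 4.30, 4.32 and 4.35 in phyABDE R50 seedlings, against 3.33, 3.47 and 3.31 in phyABDE dark seedlings. Here the R50 arrays nearly coincided above the dark ones, with a change of 0.95 ± 0.18 (SE, adjusted p = 0.0418, limma).

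All 3 calls were lost without dark replicate 2, dark replicate 3, R50 replicate 2 or R50 replicate 3, each of which left 0 of the 33 genes called. That of AT5G55450 was also lost without dark replicate 1 or R50 replicate 1, with 16 added to each intensity and without the kit term. R50 replicates 2 and 3 of phyABDE also had the highest ratio of 3' to 5' signal of the GAPDH control, 0.52 and 0.53 log2 units, against 0.07 in R50 replicate 1 and 0.12 to 0.18 in the phyABDE dark arrays, and the part of this in the 3 changes was not tested.

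Among the others, AT5G48490 had 6.09, 6.13 and 6.96 in phyABDE R50 seedlings, against 5.49, 4.41 and 4.57 in phyABDE dark seedlings. Its R50 arrays were above all dark arrays, yet the change of 1.57 ± 0.35 (SE) had an adjusted p of 0.0706 (limma). AT2G34620 had 6.01, 6.36 and 6.66 in phyABDE R50 seedlings, against 6.15, 4.67 and 5.74 in phyABDE dark seedlings, and AT1G21500 had 7.02, 7.21 and 7.62 in phyABDE R50 seedlings, against 7.0, 6.24 and 6.56 in phyABDE dark seedlings. One dark array of AT2G34620 lay within its R50 range and in AT1G21500 the highest dark array nearly reached the lowest R50 array; the changes of 0.82 and 0.68 did not pass the test. AT5G55620 changed by 1.22 ± 0.32 (SE, adjusted p = 0.138, limma). These 7 genes, the 3 called ones and the 4 just given, were the ones whose change came to 20% or more of the wild-type difference, a limit set after the values were seen.

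The genes with the next largest wild-type rises did not pass the test in phyABDE. AT1G22690 had 2.73, 2.54 and 2.78 in phyABDE R50 seedlings, against 2.96, 2.69 and 2.71 in phyABDE dark seedlings. AT4G28780 had 2.92, 3.51 and 3.81 in phyABDE R50 seedlings, against 3.25, 2.99 and 4.04 in phyABDE dark seedlings, with replicates more spread. AT3G57020 had 5.13, 6.34 and 5.87 in phyABDE R50 seedlings, against 5.06, 6.72 and 5.90 in phyABDE dark seedlings. In these 3 genes the groups overlapped, and the 95% intervals of the change were -0.47 to 0.26 for AT1G22690, -0.52 to 0.49 for AT4G28780 and -0.85 to 0.62 for AT3G57020.

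AT3G22060 had 2.69, 2.60 and 2.59 in phyABDE R50 seedlings, against 2.68, 2.85 and 2.84 in phyABDE dark seedlings. AT5G43450 had 2.94, 2.90 and 2.97 in phyABDE R50 seedlings, against 2.98, 2.91 and 3.13 in phyABDE dark seedlings. IQD24 had 3.11, 3.31 and 3.41 in phyABDE R50 seedlings, against 3.29, 2.97 and 2.83 in phyABDE dark seedlings. None of these separated into a light and a dark group without overlap, though for IQD24 the R50 arrays were on average 0.25 higher. AT1G33811 had 5.26, 5.86 and 6.57 in phyABDE R50 seedlings, against 5.55, 5.01 and 5.55 in phyABDE dark seedlings. AT2G29360 had 3.09, 3.07 and 3.14 in phyABDE R50 seedlings, against 3.07, 2.75 and 3.25 in phyABDE dark seedlings. Overlap was again seen in both, with 95% intervals of -0.08 to 1.13 and -0.22 to 0.37.

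AT1G04350 had 3.92, 4.18 and 4.15 in phyABDE R50 seedlings, against 4.04, 3.88 and 3.78 in phyABDE dark seedlings. AT3G48420 had 6.83, 7.73 and 7.59 in phyABDE R50 seedlings, against 7.17, 6.84 and 7.20 in phyABDE dark seedlings. The lowest R50 array of each lay below its highest dark array. AT1G51805 had 2.53, 2.37 and 2.41 in phyABDE R50 seedlings, against 2.45, 2.39 and 2.29 in phyABDE dark seedlings. AT1G65490 had 2.76, 2.66 and 2.54 in phyABDE R50 seedlings, against 2.54, 2.35 and 2.70 in phyABDE dark seedlings. Both were flat and dim, and their intervals were -0.15 to 0.27 and -0.22 to 0.47. Of the 33 genes 7 had all R50 arrays above all dark arrays in phyABDE and 2 had all below, while over all probe sets 10.8% were above and 7.80% below.

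In phyABCDE, without phytochromes A to E, limma called none of the 33 genes under continuous red light, where 0.00879% of all probe sets (2 of 22746) were called and 5.68% (1291) had an unadjusted p under 0.05. With the replicate number as a block the 2 calls became 0. The median change of the 33 genes was 0.07, against 0.01 over all probe sets, and 0.13 without dark replicate 3. At an unadjusted p under 0.05, 4 genes were higher and none lower, with the block 4 higher and 1 lower, and the lowest adjusted p was 0.368 for AT5G55450.

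AT5G48490 had 4.86, 6.02 and 5.16 in phyABCDE R50 seedlings, against 4.26, 3.68 and 4.41 in phyABCDE dark seedlings. All its R50 arrays were above the dark arrays, and its change of 1.23 ± 0.35 (SE, adjusted p = 0.659, limma) was the largest. AT5G55450 had 4.36, 3.79 and 4.05 in phyABCDE R50 seedlings, against 3.59, 2.93 and 3.35 in phyABCDE dark seedlings, a change of 0.78 ± 0.18 (SE). AT2G34620 had 5.49, 5.31 and 5.52 in phyABCDE R50 seedlings, against 4.44, 4.38 and 5.02 in phyABCDE dark seedlings, a change of 0.82 ± 0.33 (SE). In these genes the R50 arrays stood above the dark arrays by a small margin. AT1G21500 had 6.22, 6.98 and 6.91 in phyABCDE R50 seedlings, against 5.97, 5.45 and 6.58 in phyABCDE dark seedlings, a change of 0.71 ± 0.29 (SE), with an overlap of the groups. AT2G34620, AT5G55450 and AT1G21500 reached 20% or more of the wild-type difference in both mutants.

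AT2G43550 had 5.45, 4.47 and 4.62 in phyABCDE R50 seedlings, against 5.00, 4.07 and 4.43 in phyABCDE dark seedlings. AT5G38980 had 5.38, 4.62 and 4.87 in phyABCDE R50 seedlings, against 4.80, 4.18 and 4.47 in phyABCDE dark seedlings. The groups overlapped in both genes, though R50 was the higher array in all 3 same-numbered pairs of each, with changes of 0.35 ± 0.30 and 0.47 ± 0.25 (SE). AT3G57020 had 7.21, 7.08 and 6.64 in phyABCDE R50 seedlings, against 7.87, 7.59 and 7.17 in phyABCDE dark seedlings. R50 was the lower array in all 3 same-numbered pairs, by 0.51 to 0.65 log2 units. The change of -0.56 ± 0.35 (SE) was the most negative of the 33 and did not pass the test, nor did it with the replicate number as a block, where its SE was 0.23 and its unadjusted p 0.0304 (adjusted p = 0.615, limma).

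AT1G22690 had 2.55, 2.77 and 2.91 in phyABCDE R50 seedlings, against 2.88, 2.68 and 2.68 in phyABCDE dark seedlings. AT4G28780 had 3.07, 3.28 and 3.12 in phyABCDE R50 seedlings, against 3.02, 2.87 and 3.49 in phyABCDE dark seedlings. AT3G22060 had 2.91, 2.46 and 2.75 in phyABCDE R50 seedlings, against 2.92, 2.89 and 2.52 in phyABCDE dark seedlings. All of these overlapped and lay at the dim end of the scale. AT5G43450 had 2.86, 3.16 and 3.02 in phyABCDE R50 seedlings, against 3.00, 3.14 and 3.00 in phyABCDE dark seedlings. IQD24 had 3.28, 3.52 and 3.42 in phyABCDE R50 seedlings, against 3.65, 3.51 and 3.25 in phyABCDE dark seedlings. AT2G29360 had 3.01, 2.85 and 2.85 in phyABCDE R50 seedlings, against 2.95, 3.06 and 2.64 in phyABCDE dark seedlings. The 95% intervals of the change were -0.27 to 0.20 for AT5G43450, -0.36 to 0.23 for IQD24 and -0.28 to 0.32 for AT2G29360.

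AT1G33811 had 5.97, 6.00 and 6.18 in phyABCDE R50 seedlings, against 6.01, 5.45 and 5.95 in phyABCDE dark seedlings. AT1G04350 had 3.75, 4.29 and 4.12 in phyABCDE R50 seedlings, against 4.12, 3.73 and 3.69 in phyABCDE dark seedlings. AT3G48420 had 6.93, 6.85 and 6.95 in phyABCDE R50 seedlings, against 5.94, 6.55 and 7.03 in phyABCDE dark seedlings. The groups overlapped in each, also in AT3G48420, whose dark arrays were spread over 1 unit. AT1G51805 had 2.45, 2.37 and 2.40 in phyABCDE R50 seedlings, against 2.26, 2.27 and 2.47 in phyABCDE dark seedlings. AT1G65490 had 2.69, 2.49 and 2.51 in phyABCDE R50 seedlings, against 2.49, 2.75 and 2.73 in phyABCDE dark seedlings. Neither moved by more than 0.1 units on average. Of the 33 genes 4 had all R50 arrays above all dark arrays in phyABCDE and none had all below, while over all probe sets 6.08% were above and 4.25% below.

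**Figure D2:**
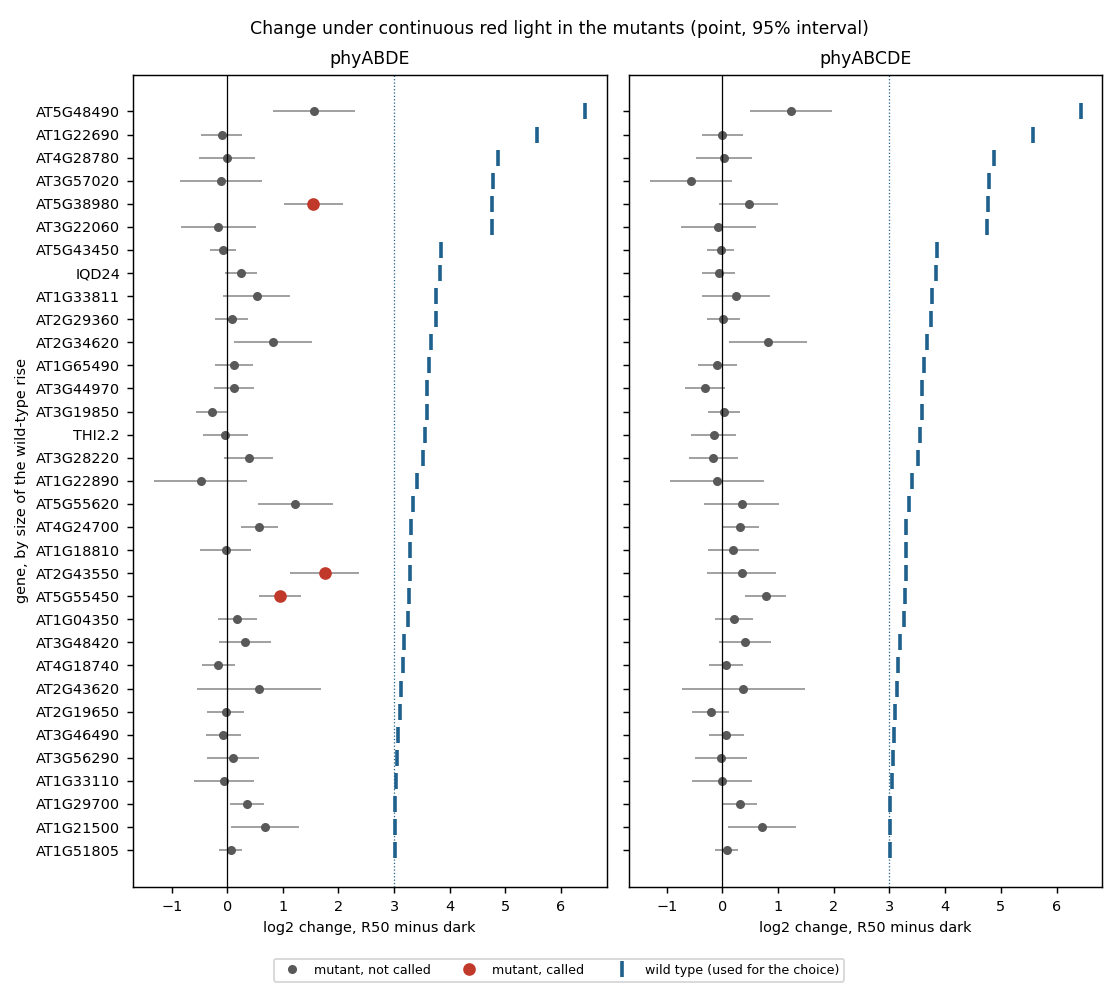
Log2 change in R50 against dark (points, with 95% intervals from limma) of the 33 genes in phyABDE and phyABCDE, with the wild-type difference that chose the genes as a vertical bar and its threshold of 3 as a dotted line. The highest upper bound is 2.38 in phyABDE and 1.97 in phyABCDE; the 3 called genes are AT5G38980, AT2G43550 and AT5G55450 in phyABDE.

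The upper 95% bound of the mutant change was at most 2.38 in phyABDE, for AT2G43550, and 1.97 in phyABCDE, for AT5G48490. The wild-type R50 arrays chose the genes, so mutant levels or changes set beside them, the shares of the wild-type difference included, are a description and no test of a difference between genotypes. Those arrays also carry the other kit, so genotype and kit cannot be told apart in R50 levels, whereas each light response was taken within a kit.

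The direct test of whether the 2 mutants differed in their R50 response called none of the 33 genes, and 0.0% of all probe sets, at an adjusted p under 0.05 in limma; 899 probe sets had an unadjusted p under 0.05, as did AT2G43550 and AT5G38980, both higher in phyABDE. The response of AT2G43550 was 1.41 ± 0.42 larger in phyABDE and that of AT5G38980 1.07 ± 0.36 larger (SE; adjusted p = 0.998 for each, limma). The calls in phyABDE and their absence in phyABCDE thus do not show a difference between the mutants. Across the 33 genes the changes in the 2 mutants correlated at a Pearson r of 0.73, and across all probe sets at 0.41; genes are not independent replicates.

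Split at a mean mutant dark level of 4, a limit set after the values were seen, 13 genes had median changes of 0.53 in phyABDE and 0.35 in phyABCDE, and 20 dimmer genes had 0.02 in each; this difference was not tested. Some of the brighter genes had changes near or below 0, such as AT3G57020 at -0.11 in phyABDE and -0.56 in phyABCDE and AT1G33110 at -0.06 in phyABDE and -0.01 in phyABCDE. Over all probe sets at or above that level the medians were 0.01 in phyABDE and 0.02 in phyABCDE.

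**Figure D3:**
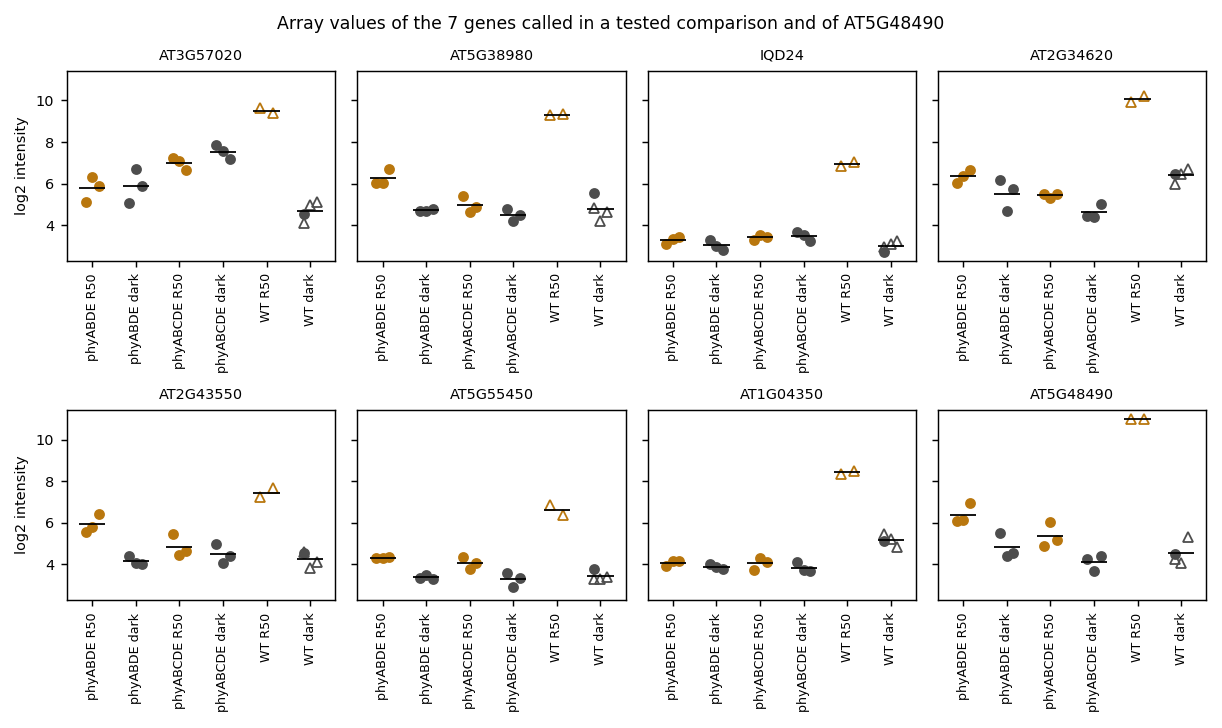
Log2 intensity on each R50 and dark array of the 7 genes called in any tested comparison and of AT5G48490, which had the largest wild-type rise (filled circles, 3' IVT Express kit; open triangles, One-cycle kit; bars, group means). AT2G43550, AT5G38980 and AT5G55450 have their phyABDE R50 arrays above the phyABDE dark arrays, and AT3G57020 is at 7.17 to 7.87 in phyABCDE dark seedlings against 4.1 to 5.10 in wild-type dark seedlings.

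A short exposure changed none of the 33 genes detectably. After 2 h of red light limma called 0 of them in phyABDE, where 0.0044% of all probe sets were called and 946 had an unadjusted p under 0.05, and 0 in phyABCDE, where 0.0176% were called and 1413 had an unadjusted p under 0.05. In phyABDE the log2 changes were -0.84 for AT1G33811 to 0.75 for AT3G57020, with a median of -0.11, against -0.01 over all probe sets, and 8 of 33 were positive, against 47.6% over all probe sets. Without DR2h replicate 1 the median was -0.01 with 15 positive, without DR2h replicate 2 -0.18 with 6 positive, without dark replicate 2 -0.18 with 7 positive and without dark replicate 1 -0.10 with 15 positive. In phyABCDE they were -0.41 for AT3G44970 to 0.43 for AT1G18810, with a median of -0.01, as over all probe sets, and 16 were positive. That median was 0.08 without DR2h replicate 1 and -0.06 without DR2h replicate 2. The highest upper 95% bounds were 1.57 in phyABDE and 1.17 in phyABCDE, and no wild-type array with this exposure was analysed here. The test of the difference between the mutants called 0.0% of all probe sets and none of the 33 genes, with 723 probe sets but none of these genes at an unadjusted p under 0.05.

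AT5G48490 had 4.21 and 4.95 in phyABDE DR2h seedlings, against 5.49, 4.41 and 4.57 in phyABDE dark seedlings. In phyABCDE it had 4.28 and 4.35 in phyABCDE DR2h seedlings, against 4.26, 3.68 and 4.41 in phyABCDE dark seedlings. In neither mutant did a DR2h array exceed the highest dark array. AT2G43550 had 3.80 and 4.53 in phyABDE DR2h seedlings, against 4.41, 4.09 and 4.03 in phyABDE dark seedlings. AT5G38980 had 3.81 and 4.90 in phyABDE DR2h seedlings, against 4.69, 4.66 and 4.77 in phyABDE dark seedlings, and AT5G55450 had 2.81 and 3.45 in phyABDE DR2h seedlings, against 3.33, 3.47 and 3.31 in phyABDE dark seedlings. Of these 3 genes, which were called in phyABDE R50, each had DR2h replicate 1 below all its dark arrays, and in none were both DR2h arrays above the dark arrays. AT1G33811 had 3.99 and 5.08 in phyABDE DR2h seedlings, against 5.55, 5.01 and 5.55 in phyABDE dark seedlings, a change of -0.84 ± 0.32 (SE, adjusted p = 0.9995, limma). The pair of DR2h arrays was far apart here.

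The DR2h arrays of AT1G22690 were at 2.59 and 2.72 in phyABDE and 2.79 and 2.69 in phyABCDE, and those of AT4G28780 at 2.96 and 3.26 in phyABDE and 2.88 and 3.33 in phyABCDE. Those of AT3G57020 were at 6.65 and 6.63 in phyABDE and 7.70 and 7.11 in phyABCDE. Those of AT3G22060 were at 3.01 and 2.87 in phyABDE and 2.69 and 2.93 in phyABCDE. In phyABDE both DR2h arrays of AT3G22060 were above its dark arrays, by less than 0.2 units, and the other pairs overlapped their dark arrays or lay close to them. For AT5G43450 they were 2.95 and 2.83 in phyABDE and 3.29 and 3.17 in phyABCDE, and for IQD24 2.86 and 3.09 in phyABDE and 3.5 and 3.65 in phyABCDE. For AT2G29360 they were 2.87 and 2.81 in phyABDE and 2.82 and 2.81 in phyABCDE.

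For AT2G34620 the DR2h arrays were at 4.57 and 5.52 in phyABDE and 4.37 and 5.43 in phyABCDE, and for AT1G04350 at 3.53 and 3.82 in phyABDE and 3.84 and 3.82 in phyABCDE. For AT3G48420 they were at 6.55 and 6.79 in phyABDE and 6.74 and 6.86 in phyABCDE. For AT1G21500 they were at 5.82 and 6.77 in phyABDE and 5.76 and 6.51 in phyABCDE. In phyABDE both DR2h arrays of AT3G48420 were below all dark arrays, which was not called. For AT1G51805 they were 2.30 and 2.42 in phyABDE and 2.27 and 2.44 in phyABCDE, and for AT1G65490 2.33 and 2.41 in phyABDE and 2.40 and 2.65 in phyABCDE. In phyABCDE AT2G43550 was at 4.43 and 3.89, AT5G38980 at 4.1 and 4.36, AT5G55450 at 3.46 and 3.42 and AT1G33811 at 5.15 and 5.84. Over the 33 genes both DR2h arrays were above all dark arrays in 1 gene in phyABDE, AT3G22060, and in 3 genes in phyABCDE, AT5G43450, AT4G24700 and AT1G18810. Over all probe sets 10.3% were in phyABDE and 11.1% in phyABCDE. Both DR2h arrays were below all dark arrays in 1 gene in phyABDE, AT3G48420, and in 1 gene in phyABCDE, AT3G44970. The shares of all probe sets below were 11.2% in phyABDE and 13.5% in phyABCDE.

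**Figure D4:**
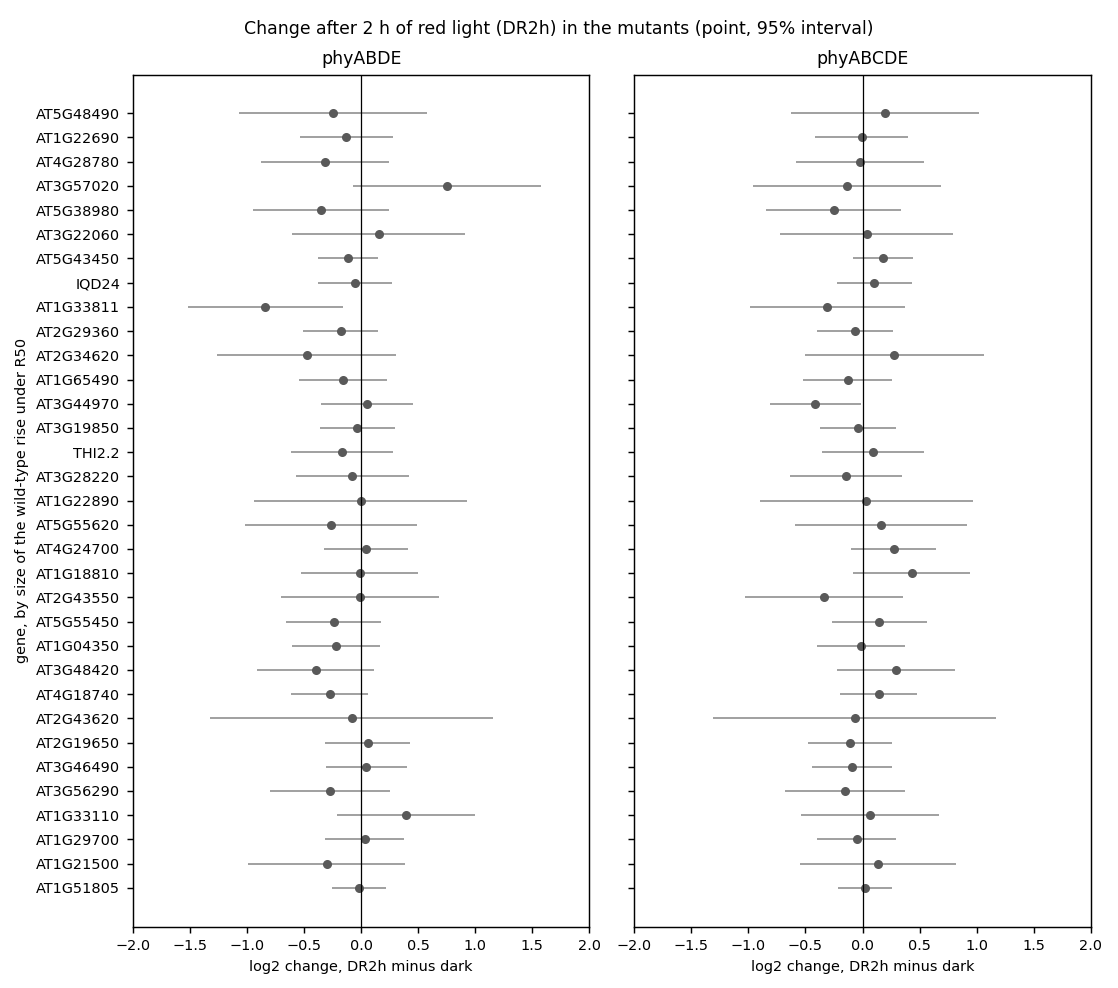
Log2 change after 2 h of red light (DR2h) against dark, with 95% intervals from limma, for the 33 genes in each mutant. No gene is called; the points run between -0.84 and 0.75 in phyABDE and between -0.41 and 0.43 in phyABCDE.

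In darkness a few of the genes already differed between the genotypes. Compared with dark wild type, phyABCDE had higher levels of AT3G57020 and IQD24 and lower levels of AT1G04350 and AT2G34620, where 3.6% of all probe sets were called, and phyABDE had lower levels of AT1G04350, where 0.805% were called. With the kit in the model these differences rest on a single array, wild-type dark replicate 1.

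AT3G57020 had 7.87, 7.59 and 7.17 in phyABCDE dark seedlings, against 4.52, 4.1, 4.98 and 5.10 in wild-type dark seedlings, a difference of 3.02 ± 0.50 (SE, adjusted p = 0.0014, limma). All these mutant arrays were above wild-type dark replicate 1, and also above the other wild-type dark arrays, which helped choose the genes. In phyABDE dark seedlings it had 5.06, 6.72 and 5.90, a difference of 1.37 ± 0.50 from wild type that did not pass the test (SE, adjusted p = 0.258, limma). Set directly against phyABCDE, phyABDE was lower by 1.65 ± 0.35 log2 units on average (SE, adjusted p = 0.014, limma), the only one of the 33 genes called in that comparison, where 2.33% of all probe sets were called. That call was lost with the fit restricted to the compared arrays and without phyABDE dark replicate 1 or 3 or phyABCDE dark replicate 1 or 2.

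AT1G04350 had 4.04, 3.88 and 3.78 in phyABDE dark seedlings and 4.12, 3.73 and 3.69 in phyABCDE dark seedlings, against 5.14, 5.47, 5.20 and 4.85 in wild-type dark seedlings. Every mutant array was below wild-type dark replicate 1, and also below the other wild-type dark arrays, which helped choose the genes. The differences were -1.24 ± 0.23 in phyABDE (SE, adjusted p = 0.0111, limma) and -1.30 ± 0.23 in phyABCDE (SE, adjusted p = 0.00266, limma). The phyABDE call was lost when only the compared arrays were fitted. AT2G34620 had 4.44, 4.38 and 5.02 in phyABCDE dark seedlings, against 6.44, 5.99, 6.48 and 6.68 in wild-type dark seedlings. The groups were well apart, with a difference of -1.83 ± 0.47 (SE, adjusted p = 0.0359, limma). IQD24 had 3.65, 3.51 and 3.25 in phyABCDE dark seedlings, against 2.71, 2.94, 3.07 and 3.26 in wild-type dark seedlings, a difference of 0.77 ± 0.20 (SE, adjusted p = 0.0353, limma). For IQD24 the lowest mutant array was just below the highest wild-type array, and both groups were dim. The calls of IQD24 and AT2G34620 were lost without phyABCDE dark replicate 1 or 2 and with 16 added to each intensity, that of IQD24 also with only the compared arrays fitted and that of AT2G34620 with array weights.

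Over the 33 genes, the median dark difference from wild type was -0.09 in phyABDE and -0.10 in phyABCDE, against -0.02 over all probe sets in each. The mean log2 level of 7 late embryogenesis and oleosin genes, chosen after the values were seen, was 7.72 to 9.14 in phyABDE dark, 9.34 to 9.67 in phyABCDE dark and 6.23 to 7.92 in wild-type dark arrays, and its part in the dark differences was not tested. The phyABCDE dark level of AT3G57020 lay between its wild-type R50 and wild-type dark levels.

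**Figure D5:**
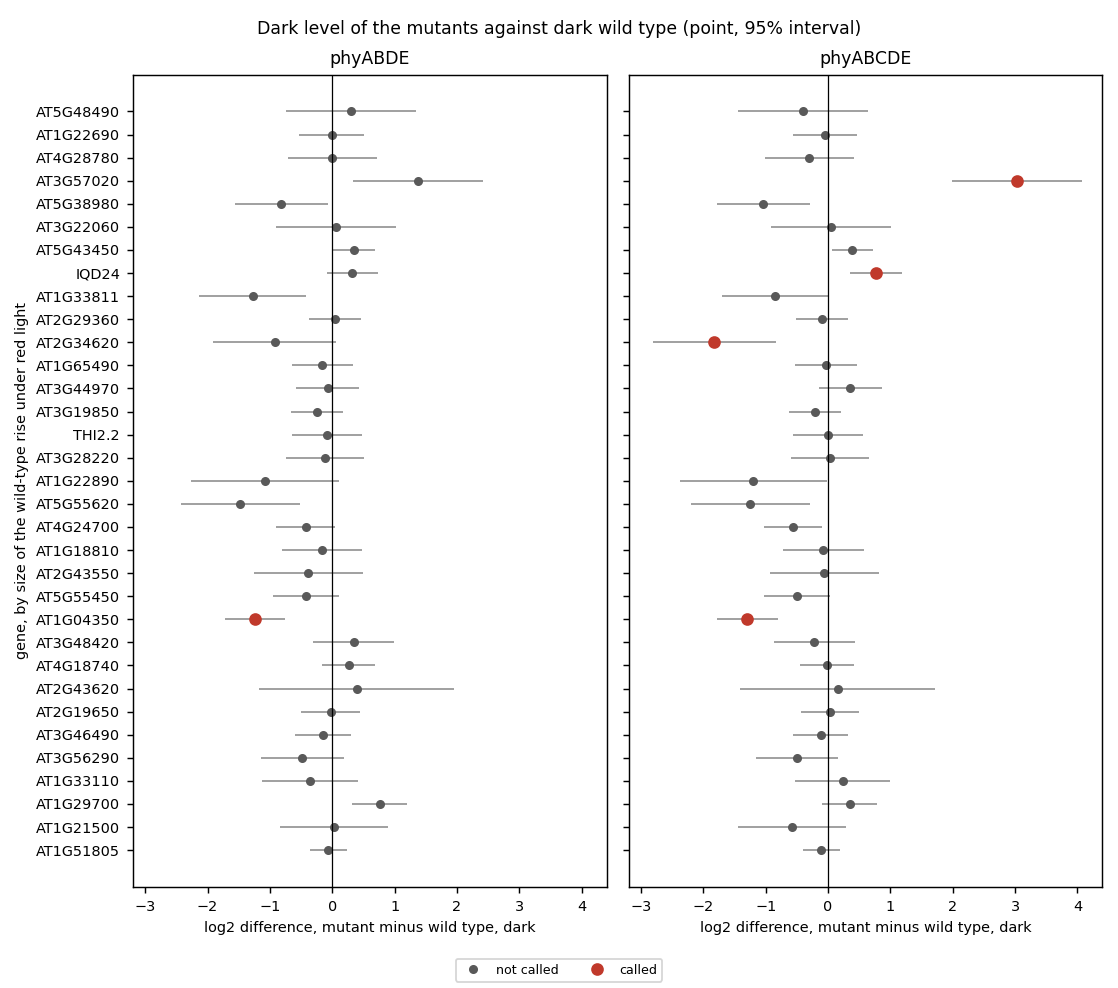
Difference in dark log2 level, mutant minus wild type, with 95% intervals from limma, for the 33 genes in each mutant. AT3G57020 is furthest to the right at 3.02 in phyABCDE, and AT1G04350 is called lower in both mutants at -1.24 and -1.30.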

How the data were processed

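RNA of 22 seedling samples in 8 groups was hybridised to Affymetrix ATH1 arrays. The authors deposited 1 table of linear intensities per probe set and array; RMA, GCOS and limma appear, with no version or role, per the submitters' processing notes, and other steps are not given in the sources used here. The deposited normalization was kept and log2 taken. Of 22810 probe sets, 64 controls were left out. A single gene was assigned to 13513 probe sets by the array annotation and more than 1 to 503; 13436 matched the RefSeq table of assembly TAIR10.1, used for names and gene order. Levels of different probe sets are not comparable, and depth per array is not a property of such data: the number of arrays limits the precision, with a median 95% half-width of 0.30 log2 units for R50 against dark in a mutant.

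The 33 genes, the gene lists and the comparisons were chosen with earlier results of these data known. The 9 comparisons reported for the 33 genes came from 1 limma 3.58.1 fit to all 22 arrays in R 4.3.3. It used lmFit and eBayes, with group means, a kit term and 13 residual degrees of freedom. Adjustment was Benjamini-Hochberg over 22746 probe sets, with a call at an adjusted p under 0.05. The same fit holds wild-type R50 against dark, used for its counts over all probe sets and for other genes; for the 33 genes, which that contrast chose, no p-value of it is given. With the kit term, mutants meet dark wild type through wild-type dark replicate 1 alone. Tables were made with pandas 2.3.3 and numpy 2.4.6 under Python 3.11.15, and plots with matplotlib 3.10.9.

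Values on every array are given for the 10 genes with the largest wild-type difference, those called in a tested comparison, and 4 with the highest or lowest wild-type R50 level; list genes are named by largest wild-type change, at most 4 per list. The text patterns that define the lists were narrowed after the table was seen, to keep cyclophilins out of the cytochrome P450 genes and methionine names out of the thionins. One list given by locus codes, as GASA genes, was left out above, since the tables annotate none of its genes measured outside the 33. AT1G22690 is on that list. Of its 5 other genes measured, none was called higher and 1 lower in wild-type R50 against dark, where 27.5% of all probe sets were called. The lower one, AT2G14900, changed by -1.70 ± 0.15 (SE). Lists of lipid transfer, GDSL and germin genes matched no gene by name. The deviations of same-numbered R50 and dark arrays correlated at 0.112 to 0.477 in phyABDE and 0.125 to 0.333 in phyABCDE, all over 0.1. Those of unlike-numbered arrays correlated at -0.363 to 0.178 in phyABDE and -0.247 to 0.036 in phyABCDE. In phyABDE, R50 replicate 2 correlated at 0.178 with dark replicate 3 and at 0.176 with dark replicate 2. These values therefore do not show pairing by number for replicates 2 and 3 of phyABDE. A fit with the replicate number as a block was compared. For DR2h only 2 numbers are shared. Alternatives were another offset, quantile normalization, a filter on dim probe sets, no kit term, array weights, a fit to the compared arrays alone and leaving out each array. Promoter sequences and motifs were not analysed here.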

Additional observations from a re-analysis of the deposited data

Results flagged for a closer look

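In wild-type dark seedlings the log2 level of AT3G22060 on replicate 4 was 4.7082, far above the other 3 arrays at 2.73, 2.76 and 2.92, and this is the only one of the 33 genes in which 1 of these 4 arrays stood apart by Dixon's criterion. Chance alone marks about 1 in 20 groups. The 2 R50 arrays of wild type, at 7.91 and 8.53, were above that array too.

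A set of 34 probe sets with no gene or several genes named in the annotation met the same wild-type threshold as the 33 genes. They are not described here, since no single gene can be given for them.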

How the results depend on the processing

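The number of genes chosen depends on the scale: 65 met a threshold of 2.5 log2 units, 16 a threshold of 3.5, and 8 the original threshold after 16 was added to each intensity. For phyABDE R50 against dark, the genes called higher were 3 as reported, 1 with probe sets under a mean log2 of 5 left out, and 0 to 3 when single arrays were left out. For phyABDE against phyABCDE in dark, 0 were called lower when only the compared arrays were fitted, against 1 as reported, and leaving out arrays gave 0 to 1 lower and 0 to 1 higher. For phyABCDE against wild type in dark, 2 higher became 1 with the offset of 16, with the dim filter and with the compared arrays alone, and 2 lower became 1 with the offset, the dim filter and array weights; leaving out arrays gave 1 to 2 higher and 1 to 3 lower. For phyABDE against wild type in dark, 1 lower became 0 with the dim filter and with the compared arrays alone. Without the kit term, so that wild-type arrays of both kits entered alike, 4 genes were lower and 3 higher than wild type in each mutant. In that fit, over 22746 probe sets, 2475 were higher and 3087 lower in phyABCDE, and 1994 higher and 2447 lower in phyABDE. Its wild-type dark mean includes replicates 2 to 4, which helped choose the genes, so its counts of the 33 genes are a description. The dim filter kept 10 of the 33 genes, so it had fewer to call; the cause of the other changes was not tested. Single genes were followed where their unadjusted p was under 0.05: 30 values of called genes lost their call, 76 kept it, 9 values of uncalled genes gained one, and no direction turned. AT3G57020 and AT1G04350 in phyABCDE against wild type kept their calls in every alternative that tested them; the dim filter left AT1G04350 out.

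Over all probe sets the calls were 33 for phyABDE R50 (4 to 120 over all alternatives), 2 for phyABCDE R50 (0 to 2), 1 for phyABDE DR2h (0 to 6) and 4 for phyABCDE DR2h (1 to 26). In dark they were 529 between the mutants (245 to 661), 819 for phyABCDE against wild type (423 to 5562) and 183 for phyABDE against wild type (61 to 4441), the highest of the last 2 without the kit term. With the replicate number as a block, 3 of the 33 genes stayed called in phyABDE R50 (AT2G43550 at 1.76, adjusted p = 0.0092, limma), 35 probe sets were called there, 0 in phyABCDE R50 and 26 in phyABCDE DR2h, where the same-numbered arrays did not deviate together; no other call of the 33 genes changed. No block could be used between genotypes in dark, since the numbers are nested in the genotype, and wild-type dark replicate 1 could not be left out of the dark comparisons. Leaving out 1 DR2h array leaves a lone array, assumed to vary like the other groups.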
